A study of Homo sapiens with 6 samples.

Results

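CITED2, a transcriptional co-regulator that competes with hypoxia-inducible factor (HIF) for its coactivator, was examined together with 9 genes that make up or control HIF. The rows of the deposited table named CITED2, CITED4, HIF1A, EPAS1, ARNT, EGLN1, EGLN2, EGLN3, VHL and HIF1AN were taken, which are 10 of the 27009 genes in it, and each name matched 1 row. CITED2 had been chosen by its low nPD-L1 to vector ratio in these same libraries, and the other 9 genes were added as its family and pathway with their values in view. The differences of all 10 in that contrast are therefore given as a description, with no p. Where a member is said to be called in a fit over all genes, that is a description too. The counts of members called stand beside the share of all genes called. The samples were Hep3B cells, a human liver cancer line, and all of them carried a knockout of the endogenous PD-L1 gene. Into these cells either the empty lentiviral vector (vector, 3 libraries) or a PD-L1 mutated so that it accumulates in the nucleus (nPD-L1, 3 libraries) had been delivered, with expression from a CMV promoter and puromycin selection. Whether the knockout line was 1 clone is not given in the sources used here, and the 3 libraries of a group are described as independent samples without saying whether they came from separate cultures, so the errors measure only the spread between these libraries.

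HIF is a pair of basic helix-loop-helix proteins, an oxygen-regulated alpha subunit (from HIF1A or EPAS1) and the constitutive partner ARNT. In the presence of oxygen, prolyl hydroxylases (from EGLN1, EGLN2 and EGLN3) mark the alpha subunits for the VHL ubiquitin ligase, and the asparaginyl hydroxylase FIH (from HIF1AN) blocks their contact with the coactivators CBP and p300. CITED2 and CITED4 bind the same domain of CBP and p300 that the alpha subunits use. CITED2 and EGLN3 are themselves known as transcripts that hypoxia raises, and much of the control of HIF is on protein stability, which RNA levels do not show.

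The promoters of CITED2 and CITED4 are shown because of this related pair only CITED2 was lower in every nPD-L1 library. Those of EGLN1 and EGLN3 are shown because they are the abundant and the most changed of the prolyl hydroxylases. Each line gives the 250 bases before the first RefSeq transcription start, 5′ to 3′ on the strand of the gene, in GRCh38. These are chr6:139374649-139374898 (minus strand) for CITED2, chr1:40862364-40862613 (minus) for CITED4, chr1:231422288-231422537 (minus) for EGLN1 and chr14:33951075-33951324 (minus) for EGLN3. Capitals mark the core word that HIF binds, ACGTG or GCGTG on either strand.
CITED2: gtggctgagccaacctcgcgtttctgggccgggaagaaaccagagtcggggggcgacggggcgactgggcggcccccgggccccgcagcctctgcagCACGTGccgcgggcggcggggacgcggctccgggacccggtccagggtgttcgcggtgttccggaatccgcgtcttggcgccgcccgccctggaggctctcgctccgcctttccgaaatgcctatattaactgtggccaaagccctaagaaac
CITED4: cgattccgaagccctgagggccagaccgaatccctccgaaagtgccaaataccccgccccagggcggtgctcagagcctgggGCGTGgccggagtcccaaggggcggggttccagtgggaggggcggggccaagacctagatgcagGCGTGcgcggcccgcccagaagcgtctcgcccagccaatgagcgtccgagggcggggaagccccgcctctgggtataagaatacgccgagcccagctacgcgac
EGLN1: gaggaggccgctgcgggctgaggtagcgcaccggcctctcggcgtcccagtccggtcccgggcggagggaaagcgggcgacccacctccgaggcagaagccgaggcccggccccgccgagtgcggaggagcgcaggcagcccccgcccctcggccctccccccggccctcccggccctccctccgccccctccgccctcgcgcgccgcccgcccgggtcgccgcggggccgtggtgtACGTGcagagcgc
EGLN3: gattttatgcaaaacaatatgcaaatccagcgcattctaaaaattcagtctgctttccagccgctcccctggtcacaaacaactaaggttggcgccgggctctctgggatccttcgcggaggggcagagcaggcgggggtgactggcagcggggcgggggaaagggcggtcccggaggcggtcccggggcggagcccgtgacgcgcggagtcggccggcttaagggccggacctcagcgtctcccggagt

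The CITED2 window held 1 such stretch, 153 bases before the start, where the word reads on both strands and also forms the E-box CACGTG that other helix-loop-helix factors bind. CITED4 held GCGTG at 168 and 104 bases before its start, EGLN1 held ACGTG at 13 bases, and the EGLN3 window held none of these words. Of the 9 members with a RefSeq promoter, 6 held at least 1, against 57.4% of 10486 promoters of the genes tested and 43.1% of all 27305 RefSeq promoters of the same length. VHL had no entry. The windows were rich in G and C, from 54.4% (HIF1AN) to 81.2% (EGLN1), with a median of 70.0% against 65.2% for the genes tested. The EGLN1, EGLN3, EPAS1 and HIF1AN windows lie inside the longer gene spans of the deposited table.

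The deposited values, called scaled reads here, were the reads of a gene over the size factor of its library, and they summed to between 18082164 and 19682128 per library. The 4 libraries whose whole reads could be recovered held 17427519 to 22253295 reads on genes. CD274, which encodes PD-L1 (chromosome 9, 5450503 to 5470566, plus strand, GRCh38), had 28.3, 38.4 and 47.8 scaled reads in vector replicates 1, 2 and 3, against 16.8, 19.2 and 30.9 in nPD-L1 replicates 1, 2 and 3. CD274 RNA was thus not higher in the libraries labelled nPD-L1, at a log2 fold change of −0.76 ± 0.34 (standard error, adjusted p = 0.338 from limma). The paper reports enforced nuclear PD-L1 in Hep3B cells with this knockout, from gels and cellular fractionation. That is protein, which these RNA values do not measure. The groups are named by their labels throughout. Defining hepatocyte transcripts were nearly absent. ALB, APOA1, APOB, TTR and TF did not exceed 2.89 scaled reads in any library and AFP was not analysed here, while FGB (962 to 1540) was present. The name Hep3B is the submitters' label. The leukocyte marker PTPRC did not exceed 2.52 scaled reads, and the endothelial markers PECAM1 and VWF summed to at most 6.06 per library. The summed fibroblast markers were 165 to 245 in the vector libraries and 590 to 652 in those labelled nPD-L1. Of these, COL1A1 was at 49.9 to 82.8 and at 445 to 487, while LUM overlapped, at 99.9 to 182 and at 112 to 161. DCN and PDGFRA did not exceed 9.10 in any library. The part of these markers in the results below was not tested. Among the vector libraries, replicates 2 and 3 were farthest apart, with 1281 genes over 2-fold apart, against 549 to 883 in the other pairs of both groups. Because these are bulk RNA measurements, fewer cells with a transcript and less of it per cell cannot be told apart.

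CITED2 (ENSG00000164442, chromosome 6, 139371807 to 139374620, minus strand) had the largest difference between the groups of the 10 genes, and it was lower in the libraries labelled nPD-L1. Its scaled reads were 610, 821 and 414 in vector replicates 1, 2 and 3 and 118, 97.1 and 80.1 in nPD-L1 replicates 1, 2 and 3. All 3 nPD-L1 libraries were below all 3 vector libraries, although the vector libraries themselves were spread from 414 to 821. The means were 615 ± 204 and 98.6 ± 19.3 (SD, n = 3 each), and the log2 fold change of nPD-L1 over vector was −2.59 with a standard error of 0.24. This is a 6.03-fold lower level, with a 95% interval of 4.18- to 8.70-fold. Its log2 fold change was in place 8 from the lowest among the 15076 genes tested. GENCODE release 29 places AL592429.2 over CITED2 on the other strand, which was not analysed here. In the vector libraries the mean of CITED2 exceeded that of 60.5% of the genes tested, and in the nPD-L1 libraries that of 28.8%.

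CITED4 (ENSG00000179862, chromosome 1, 40861051 to 40862366, minus strand), the other member of the family in this set, had 162, 186 and 128 scaled reads in the vector libraries, against 193, 161 and 126 with nPD-L1. The ranges overlapped almost fully, and the log2 fold change was 0.01 (standard error 0.20, 95% interval −0.44 to 0.46). Its estimate lay so near 0 that the sign turned under some settings, among them upper-quartile scaling. Per kilobase of gene length, CITED2 stood at 1.96, 2.29 and 1.68 times CITED4 in vector replicates 1, 2 and 3 and at 0.318, 0.313 and 0.329 times CITED4 in nPD-L1 replicates 1, 2 and 3. The order of the 2 genes was therefore opposite in every library of the 2 groups. CITED2 made up 66.2% ± 3.45 of the summed CITED2 and CITED4 level in the vector libraries and 24.2% ± 0.454 in the nPD-L1 libraries (SD, n = 3). Within each group the 2 genes ranked the libraries alike, with vector replicate 2 and nPD-L1 replicate 1 highest and the third replicate of each group lowest.

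**Figure D1:**
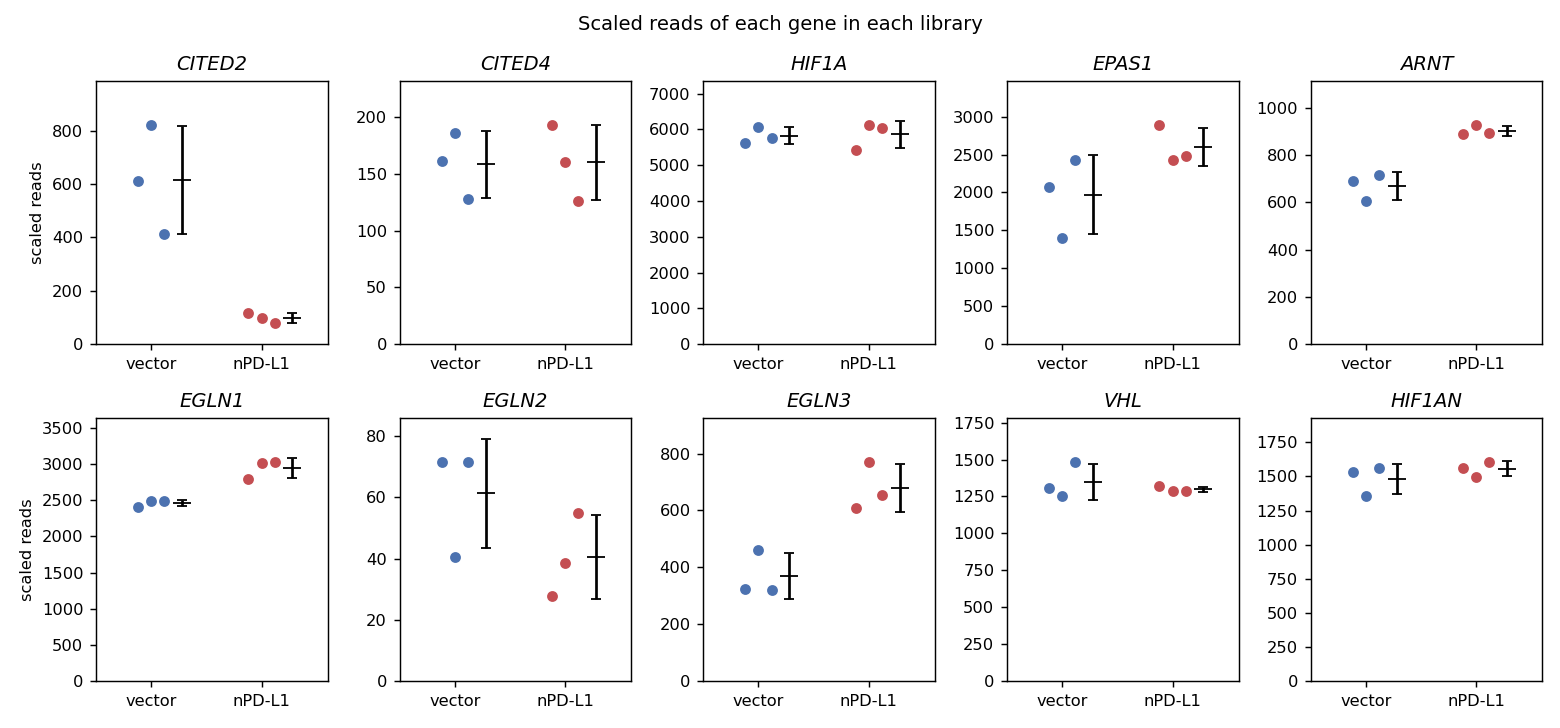
Scaled reads (vertical axes, each starting at 0) of the 10 genes in the 3 vector (blue) and 3 nPD-L1 (red) libraries, drawn in replicate order, with the mean and SD beside each group in black. CITED2 separates the groups widely, and EPAS1, ARNT, EGLN1 and EGLN3 stand higher in every nPD-L1 library. CITED4, HIF1A, EGLN2, VHL and HIF1AN overlap.

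Of the alpha subunits, HIF1A (ENSG00000100644, chromosome 14, 61695513 to 61748259, plus strand) was the most abundant member in both groups. It had 5630, 6078 and 5770 scaled reads in the vector libraries, against 5420, 6125 and 6026 with nPD-L1. Its log2 fold change was 0.01 (standard error 0.10), and its 95% interval of −0.21 to 0.22 bounds the difference at 1.17-fold either way. The antisense transcripts HIF1A-AS1 and HIF1A-AS2, which overlap it, did not exceed 6.78 scaled reads.

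EPAS1 (ENSG00000116016, chromosome 2, 46293667 to 46386703, plus strand), which encodes HIF-2 alpha, had 2072, 1405 and 2432 scaled reads in the vector libraries, against 2891, 2434 and 2485 with nPD-L1. Every nPD-L1 library lay above every vector library, with nPD-L1 replicate 2 only just above vector replicate 3. The log2 fold change was 0.43 (standard error 0.18, 95% interval 0.04 to 0.82) and did not reach the threshold over all genes. Without vector replicate 2 it was 0.21, and without vector replicate 3 it was 0.60 and past the threshold.

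ARNT (ENSG00000143437, chromosome 1, 150809705 to 150876768, minus strand), the shared partner, was higher in all nPD-L1 libraries, with 691, 604 and 714 scaled reads in the vector libraries against 888, 927 and 891. The log2 fold change was 0.43 with a standard error of 0.11, or 1.35-fold (95% interval 1.15 to 1.59). HIF1A per kilobase was 10.3, 12.7 and 10.2 times ARNT in the vector libraries, against 7.72, 8.35 and 8.55 times ARNT with nPD-L1. The summed HIF1A and EPAS1 level per kilobase was 1401 ± 45.4 in the vector and 1494 ± 39.9 in the nPD-L1 libraries (SD, n = 3), and these ranges overlapped.

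The prolyl hydroxylases differed from one another in level, and of these EGLN3 had the largest log2 fold change. EGLN1 (ENSG00000135766, chromosome 1, 231363751 to 231425044, minus strand), which encodes PHD2, the main oxygen sensor for HIF-1 alpha, had 2413, 2490 and 2486 scaled reads in the vector libraries, against 2791, 3019 and 3037 with nPD-L1. The groups did not overlap, and the log2 fold change was 0.26 (standard error 0.09, 95% interval 0.06 to 0.46), under the threshold over all genes. EGLN3 (ENSG00000129521, chromosome 14, 33924231 to 34462774, minus strand), which encodes PHD3, had 325, 462 and 321 scaled reads in the vector libraries, against 608, 772 and 653 with nPD-L1. Its lowest nPD-L1 library was above its highest vector library, and the log2 fold change of 0.89 (standard error 0.16) corresponds to 1.85-fold (95% interval 1.44 to 2.37). EGLN3 shares part of its span with SPTSSA on the same strand, which had 917 to 1277 scaled reads.

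EGLN2 (ENSG00000269858, chromosome 19, 40798996 to 40808433, plus strand), which encodes PHD1, was the weakest member, with 71.7, 40.7 and 71.7 scaled reads in the vector libraries, against 27.7, 38.4 and 55.0 with nPD-L1. These ranges overlapped, and the log2 fold change of −0.60 had a 95% interval of −1.31 to 0.12. GENCODE release 29 places the read-through gene RAB4B-EGLN2 over it on the same strand, which was not analysed here, so reads of EGLN2 could have been assigned elsewhere and its level is uncertain. Per kilobase, EGLN1 exceeded EGLN3 by 7.52, 5.46 and 7.84 times in the vector libraries and by 4.65, 3.96 and 4.71 times in the nPD-L1 libraries. EGLN3 made up 12.6% ± 2.34 of the summed level of the 3 hydroxylases in the vector libraries and 18.2% ± 1.47 in the nPD-L1 libraries (SD, n = 3). The sum itself was 399 ± 12.3 and 504 ± 29.2 scaled reads per kilobase.

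VHL (ENSG00000134086, chromosome 3, 10141008 to 10152220, plus strand), the substrate receptor of the ubiquitin ligase, had 1310, 1254 and 1486 scaled reads in the vector libraries, against 1318, 1290 and 1287 with nPD-L1. HIF1AN (ENSG00000166135, chromosome 10, 100529072 to 100559998, plus strand) had 1530, 1356 and 1562 against 1562, 1499 and 1609. Both overlapped between the groups. Their log2 fold changes were −0.05 (95% interval −0.28 to 0.17) and 0.07 (95% interval −0.15 to 0.29). NDUFB8 lies over HIF1AN on the other strand with 241 to 398 scaled reads, and since strand-specific counting is not stated, reads of the 2 genes cannot be told apart where they overlap.

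**Figure D2:**
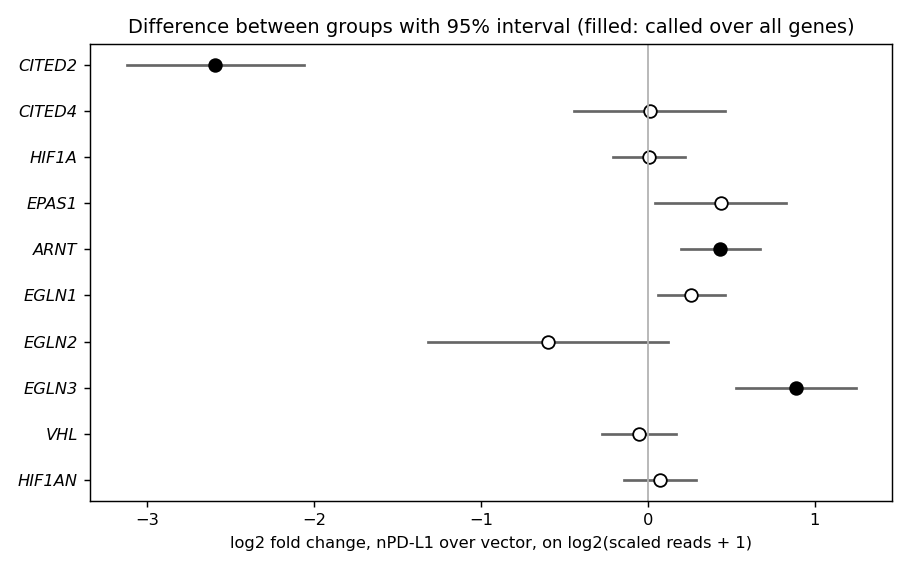
Log2 fold change of nPD-L1 over vector on log2(scaled reads + 1) for each gene (horizontal axis), with its 95% interval from limma as a line. Filled points are the 3 genes called at an adjusted p under 0.05 (limma, 15076 genes), as were 4.96% of all genes tested. They are CITED2 at −2.59, ARNT at 0.43 and EGLN3 at 0.89. The intervals of EPAS1 and EGLN1 lie above 0 without that adjustment.

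All 10 members passed the filter on low values, a value of 10 in at least 3 libraries. At a Benjamini-Hochberg adjusted p under 0.05 in limma, 2 members, EGLN3 and ARNT, were called higher, and 4.04% of the genes tested were called higher. CITED2 was the 1 member called lower, against 0.922% of the genes tested. CITED2 was also the 1 member that passed with at least a 2-fold change, as 2.48% of the genes tested did. In 5 of the 10 members the groups did not overlap, and the same held for 20.6% of the genes tested. The median log2 fold change of the members was 0.04, with 7 above and 3 below 0, and the median over all genes tested was −0.02. The median size of the log2 fold change, sign aside, was 0.35 in the members and 0.16 over all genes tested. The set was chosen with these results known, so nothing is read from these counts. EGLN3 and ARNT were no longer called without vector replicate 1 (log2 fold changes 0.81 and 0.46). ARNT also lost its call under upper-quartile scaling (0.38) or without any of the nPD-L1 libraries (0.41 to 0.44).

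The order of the members by level was taken per kilobase of the deposited gene length. In the vector libraries HIF1A stood first at 1131 ± 44.5 scaled reads per kilobase (SD, n = 3), apart from all others. EGLN1 (339 ± 5.95), VHL (320 ± 28.8), EPAS1 (270 ± 71.4) and CITED2 (242 ± 80.4) followed, and the ranges of neighbours among these overlapped. CITED4 (120 ± 22.3), HIF1AN (106 ± 7.93) and ARNT (103 ± 8.89) formed the next stretch with overlapping ranges, with EGLN3 (50.2 ± 10.9) and EGLN2 (9.33 ± 2.72) each apart below them. In the nPD-L1 libraries HIF1A (1137 ± 74.2) and EGLN1 (406 ± 18.9) were again first, although the range of EGLN1 overlapped that of EPAS1 (356 ± 34.3). CITED2 went from place 5 to place 9, at 38.9 ± 7.59, between EGLN3 (92.1 ± 11.5) and EGLN2 (6.14 ± 2.09) with no overlap to either. ARNT went from place 8 to place 5, at 139 ± 3.35, but its range lay inside that of CITED4 (122 ± 25.4). These levels depend on the deposited lengths, from 1316 bases (CITED4) to 13950 bases (HIF1AN). Without division by length HIF1AN took place 4 in both groups in place of 7. CITED2 then went from place 7 to place 9, and ARNT was in place 6 in both groups, so the move of ARNT was seen only per kilobase.

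Single libraries moved the members in different ways. The log2 range among the 3 vector libraries was 0.99 for CITED2, 0.80 for EGLN2, 0.79 for EPAS1, 0.54 for CITED4 and 0.52 for EGLN3, but 0.05 for EGLN1 and 0.11 for HIF1A. Vector replicate 2 held the highest CITED2, CITED4, HIF1A, EGLN1 and EGLN3 values of its group and the lowest EPAS1, ARNT, EGLN2, VHL and HIF1AN values. With that library left out, the log2 fold change of CITED2 was −2.36, and without vector replicate 3 it was −2.85. In the nPD-L1 libraries the log2 range was at most 0.61 in the members other than EGLN2 (0.96), with VHL (0.03) and ARNT (0.06) the narrowest.

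Transcripts that followed CITED2 most closely were sought among the 10724 tested genes whose mean reached 100 scaled reads, by Pearson's r of log2(scaled reads + 1) over the 6 libraries. The highest values belonged to DUSP5 (r = 0.993), a phosphatase that acts on ERK in the nucleus, HHEX (0.991), a homeobox factor of liver development, C1orf35 (0.990), CXCL3 (0.990), a neutrophil-attracting chemokine, and FAM107B (0.988). These r values are a description over 6 libraries that fall into 2 groups, so a gap between the groups raises r. DUSP5 had 840, 1237 and 605 scaled reads in the vector libraries, against 239, 250 and 188 with nPD-L1. It thus shared with CITED2 both the gap between groups and the order of the vector libraries. HHEX followed the same order, with 1479, 1938 and 1110 against 685, 607 and 556. Among the members, the r with CITED2 was −0.98 for ARNT and −0.95 for EGLN1, and 0.21 for CITED4.

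Other genes of the pathway were taken from lists and tested in the same limma fit over all 15076 genes. Among further family members, ARNT2 (302 to 400 scaled reads over the 6 libraries) and the membrane-bound prolyl hydroxylase P4HTM (324 to 457) were tested and neither was called (adjusted p = 0.645 and 0.957 from limma). HIF3A reached 1.68 scaled reads in 1 library and was listed at 0 in the others, and CITED1 was not analysed here. Of the VHL ligase list (ELOB, ELOC, CUL2, RBX1 and the deubiquitinase USP20), 0 of 5 were called in limma, 0 at an unadjusted p under 0.05, and none was called by edgeR or DESeq2 on 4 libraries. Their adjusted p ran from 0.639 to 0.971 in limma.

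Of 11 factors that act on the turnover of HIF alpha or of the hydroxylases, 1 was called higher and 1 lower, where 4.04% and 0.922% of all genes tested were. SIAH2, a ubiquitin ligase that degrades prolyl hydroxylases, fell from 820 ± 30.9 to 595 ± 45.5 scaled reads (SD, n = 3). On the log2 scale that is −0.46 ± 0.11 (standard error), with an adjusted p of 0.0321 in limma. WSB1, a ligase subunit that targets VHL, rose from 692 ± 28.6 to 920 ± 51.0, a log2 fold change of 0.41 ± 0.10 with an adjusted p of 0.0445 in limma. Both differences were seen in every library. Both were near the threshold, and the call was lost without any one library other than vector replicate 2 (adjusted p up to 0.176 for SIAH2 and 0.226 for WSB1 in limma). Over all 18 alternatives the adjusted p ran from 0.0102 to 0.599 for SIAH2 and from 0.0187 to 0.728 for WSB1, the highest in DESeq2 on 4 libraries.

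Among CBP, p300 and the factors that CITED2 is known to assist, 11 of 12 were tested and 1 was called (9.09%, against 4.96% of all genes tested). HNF4A, a nuclear receptor of hepatocytes, was low, with 19.2, 11.3 and 6.24 scaled reads in the vector libraries, against 51.3, 51.6 and 33.8 with nPD-L1. HNF4A was called higher, by 1.91 ± 0.42 on the log2 scale (adjusted p = 0.0232 from limma). It passed the filter on low values only through the nPD-L1 libraries, where it is high, since vector replicate 3 lay under 10. Its call is therefore a description. HNF4A was the 1 gene in the 9.09%, and 0 genes of this list were called higher with a value of 10 in every library. It lost its call without any one of the nPD-L1 libraries (adjusted p = 0.0611 to 0.137 from limma, against 0.0019 to 0.137 over its 17 alternatives). The other genes of this list named here were picked after their values had been seen. The coactivator genes EP300 and CREBBP had log2 fold changes of 0.37 and 0.37 (adjusted p = 0.571 and 0.328 from limma) with overlapping groups. EP300 was 645 in vector replicate 2 against 1306 and 1393 in the other vector libraries, and its log2 fold change was 0.01 without that library. TFAP2A and TFAP2C, AP-2 factors that CITED2 coactivates, were lower in every nPD-L1 library, by −0.78 and −0.48 on the log2 scale, and just missed the threshold (adjusted p = 0.0600 and 0.0544 from limma). Without vector replicate 2 both passed it, at −1.05 and −0.57 (adjusted p = 0.000106 and 0.00509 from limma). Over all 18 alternatives the adjusted p ran up to 0.57 for TFAP2A and 0.962 for TFAP2C. SMAD3 and WT1 went the other way in every nPD-L1 library, by 0.40 and 0.42 (adjusted p = 0.120 and 0.193 from limma). PPARG was lower in every one, by −0.23 (adjusted p = 0.280 from limma). In 6 of the 11 the groups did not overlap, as in 20.6% of the genes tested, and 7 had an unadjusted p under 0.05 in limma. The share of all genes at that unadjusted p was not counted, so nothing is read from the 7.

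Of 27 HIF target genes, 24 were tested, 7 were called higher and 0 lower in limma. On 4 libraries edgeR called 4 higher and DESeq2 5, with 0 lower in both. In limma 8 of the 24 had an unadjusted p under 0.05, a count with no share of all genes beside it, so nothing is read from it. The 29.2% called stands beside 4.96% of all genes tested in either direction. The median log2 fold change was 0.13, against −0.02 over all genes, and the 17 genes not called lay between −0.64 and 0.64. Of the 24 genes, 14 lay above 0 and 10 below. Among those not called, LDHA (0.001), PGK1 (−0.05) and ENO1 (−0.14), named after their values were seen, had overlapping groups. ANGPTL4, an inhibitor of lipoprotein lipase, went from 387 ± 33.4 to 3446 ± 760 scaled reads (SD, n = 3), or by 3.13 ± 0.15 (standard error) on the log2 scale with an adjusted p of 7.3e-07 in limma. PFKFB3, an activator of glycolysis, rose by 2.08 ± 0.11 (adjusted p = 2.3e-06 from limma). VEGFA, the angiogenic growth factor, stood at 988 ± 180 with the vector and 2395 ± 171 with nPD-L1 in scaled reads, a rise of 1.29 in log2 (adjusted p = 0.00023 from limma). NDRG1 (0.87), DDIT4 (0.64) and KDM3A (0.60) were also called and are named after their values were seen. Their calls were lost in 3, 7 and 4 of 18 alternatives, the 2-fold threshold among them. In edgeR on 4 libraries their adjusted p was 0.0601, 0.349 and 0.231. The glucose transporter gene SLC2A1, also named afterwards, had a log2 fold change of 0.18 (adjusted p = 0.437 from limma). CA9, the carbonic anhydrase often read as a marker of HIF-1 activity, did not exceed 5.20 scaled reads in any library and was not tested.

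**Figure D3:**
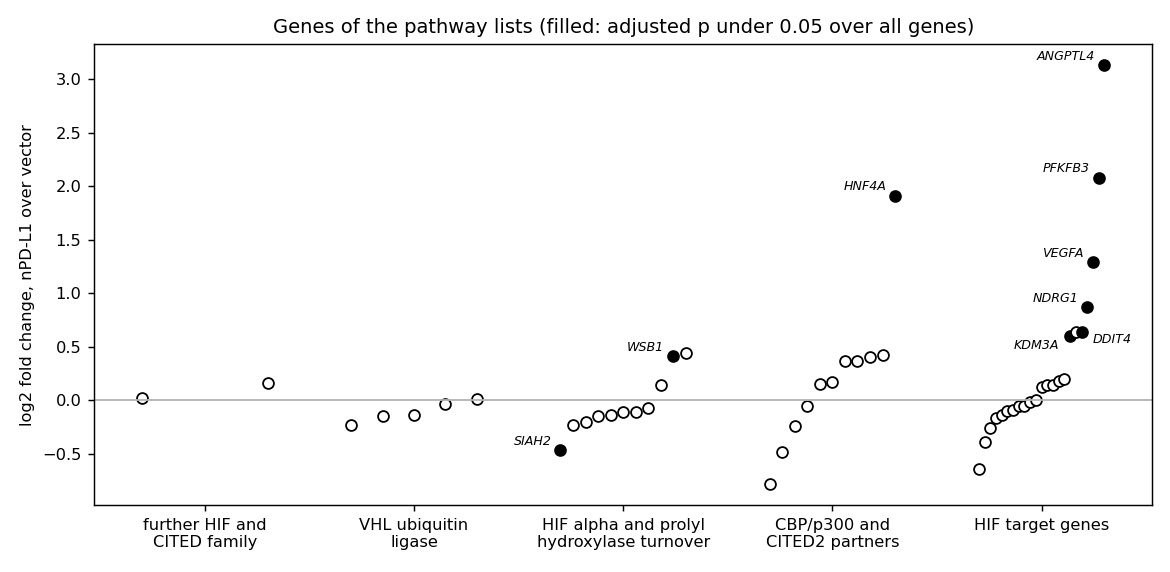
Log2 fold change of nPD-L1 over vector (vertical axis) for the tested genes of the 5 pathway lists, 1 HIF target left out, ordered by value within each list, with filled and named points for an adjusted p under 0.05 over all genes in limma. The VHL ligase and further family genes lie close to 0, and the HIF targets called all lie above 0, with ANGPTL4 at 3.13 and PFKFB3 at 2.08.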

How the data were processed

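Poly(A) or total RNA selection and strand setting are not given in the sources used here; total RNA had been extracted and libraries prepared with a NEBNext Ultra kit. The submitters' processing notes name CASAVA, HISAT2 2.0.5 and hg38, and the counter is not given in the sources used here. The table deposited by the authors gives a signal for each gene and library, which is its reads over a size factor. The same deposited table holds the authors' group means, a log2 fold change, p-values and adjusted p-values, which were not used. 100% of the values in each library were whole multiples of 1 step (within 0.01 of a read). In 2 libraries the step lay so close to 1 that the recovered reads were not used. A count model was therefore run on 4 libraries only. The coordinates of the 10 members equal those of GENCODE release 29 (GRCh38).

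Main values came from limma 3.58.1 (R 4.3.3) on log2(value + 1), with trend and robust moderation, fitted on 15076 of 27009 genes that reached 10 in 3 or more libraries, and adjusted by Benjamini-Hochberg. Fold changes on this scale understate changes of genes with low values. edgeR 4.0.16 and DESeq2 1.42.0 were alternatives, and the 3 tools were tested on simulated data. There limma on 6 libraries recovered 64.2% of genes with a log2 change of 1 and 95.5% of those with 2. Of its calls, 8.67% were on unchanged genes. On 4 libraries edgeR recovered 54.9% and DESeq2 57.3% at a log2 change of 1, with 3.97% and 7.69% of calls on unchanged genes. No p is printed for the 10 members. The other genes named were CD274, up to 4 called genes per direction of each list, the 5 genes most like CITED2, and those said to be named afterwards. The members and lists were chosen with earlier results of these data known. Values of a few list and marker genes are not reported here, although the counts include them. No batch is named in the labels.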

Additional observations from a re-analysis of the deposited data

How the results depend on the processing

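CITED2 was called lower in all 18 alternatives, with log2 fold changes of −2.85 to −2.36, and no other member was called lower in any of them. CITED2 was chosen by its low ratio in these same libraries, so these refits describe the settings and are no independent support. By setting, 13550 to 27009 genes were tested, and over all genes 48 to 258 were called lower and 229 to 927 higher. The number of members called higher was 2 in limma on 6 libraries. It was 1 without the filter on low values and under upper-quartile factors, and 0 with a 2-fold threshold added and in edgeR, DESeq2 and limma on 4 libraries, the last of these chosen after seeing the data and with fewer samples. It ran from 0 to 3 with each library left out. The sign of HIF1A was reversed under upper-quartile factors (−0.045), in edgeR (−0.043), DESeq2 (−0.051) and limma (−0.051) on 4 libraries, and it ran from −0.027 to 0.061 with each library left out. CITED4 was reversed under upper-quartile factors (−0.041) and ran from −0.14 to 0.17 with each library left out. VHL ran from −0.10 to 0.018. The cause was not tested.

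With the replicate number as a block, which the labels do not state to be a pairing, EPAS1 was also called (log2 fold change 0.43), 2 turnover factors were higher, and 2 CITED2 partners were higher and 2 lower. Over all genes the block gave 927 higher and 258 lower calls, against 609 and 139. Deviations of same-numbered libraries from their group means correlated at −0.01, 0.23 and 0.13, so the numbers were not taken to pair them. Among these correlations, vector replicate 1 went best with nPD-L1 replicate 3 (0.07), so not every library went best with its own number.

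The turnover factors called were 1 higher and 1 lower. The higher count was 0 without a filter, under upper-quartile factors, with a 2-fold threshold and in all 3 fits on 4 libraries, and 0 to 2 with each library left out. The lower count was 0 with a 2-fold threshold and in the 3 fits on 4 libraries, and 0 to 1 with each library left out. CITED2 partners called higher numbered 2 without a filter, 0 with a value of 10 in every library and 0 in the 3 fits on 4 libraries, and 0 to 2 with each library left out. Those called lower numbered 1 without a filter, 2 under upper-quartile factors, and 0 to 2 with each library left out. HIF targets called higher numbered 4 with a 2-fold threshold, 4 in edgeR and 4 in limma on 4 libraries, and 6 to 8 with each library left out. Upper-quartile factors moved the median log2 fold change of all genes from −0.02 to −0.07. Over all genes, fits on 4 libraries called 230 higher and 48 lower in edgeR 328 and 85 in DESeq2, and 229 and 52 in limma. A 2-fold threshold left 306 and 68, and leaving out each library gave 331 to 791 higher and 76 to 242 lower. Depth limits the genes with values under 100 scaled reads, among them EGLN2, HNF4A and CD274. CITED2 was also under 100 in nPD-L1 replicates 2 and 3, at 97.1 and 80.1. edgeR and DESeq2 were not run on 6 libraries.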
